A study of Rattus norvegicus with 24 samples.

Results

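Sciatic nerves of Pmp22 transgenic rats at postnatal day 18 (P18 Tg) were compared with sciatic nerves of wild-type rats at postnatal day 6 (P6 Wt), with 4 libraries on each side, which is 8 of the 24 libraries of the series. The members were chosen by genotype and age alone. The transgenic rat carries extra copies of Pmp22, the gene for a membrane protein of compact peripheral myelin, and is a model of Charcot-Marie-Tooth disease 1A. The methods give the line as Sprague Dawley SD-Tg(Pmp22)Kan, and wild-type rats of the same study served as controls. The other 16 libraries are wild-type nerves at embryonic day 21 (E21 Wt) and P18 (P18 Wt) and transgenic nerves at E21 and P6 (P6 Tg), again 4 each. The comparison asks whether the older transgenic nerve resembles a younger wild-type nerve, as a delay in maturation would give, or holds a state that wild-type nerve does not pass through at the ages sampled. Age and genotype both differ between the 2 groups and cannot be told apart in this contrast alone, so the values of wild-type nerve at E21 and P18 are given beside it.

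Schwann cells of the developing nerve begin as proliferating immature cells, sort single axons into a 1-to-1 relation, switch on the transcription factor Egr2 and then wrap the axon in myelin. Building myelin takes large amounts of cholesterol, sphingolipids and a small set of myelin proteins, and proliferation ends as cells mature. Schwann cells that lose contact with an intact axon leave the myelinating state and express a different program, marked by the transcription factor Jun and by secreted factors such as Shh and Btc.

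Each library was made from polyadenylated RNA of a whole nerve freed of its epineurium. The values therefore mix Schwann cells with fibroblasts, perineurial and endothelial cells, macrophages and the RNA that axons carry. Fewer cells of a type and less RNA per cell cannot be told apart. The total count per library ranged from 12071760 to 16624373 in P18 Tg and from 12699346 to 24875706 in P6 Wt. Levels are given in CPM, the counts scaled to a common library size after TMM normalization. The adjusted p-values come from edgeR's quasi-likelihood test over 15951 genes with Benjamini-Hochberg adjustment, with standard errors (SE) on the log2 scale. A level written with ± is the mean and SD of 4 libraries, and a fold change written with ± carries its SE. The 2 groups had nearly equal scaling factors, with a mean of 1.02 in P18 Tg and 1.01 in P6 Wt against 0.856 in P18 Wt. Of the 4 libraries in each group, 1 of P18 Tg and 1 of P6 Wt held under 1 CPM of the Y-linked gene Kdm5d, against 3 of 4 in P18 Wt. In E21 Wt the summed level of the Y-linked genes was at least 49.96 CPM in every library. This touches comparisons with P18 Wt and E21 Wt and not the one with P6 Wt. It therefore also touches the line from P6 Wt to P18 Wt and the calls between or outside the wild-type ages described below. Of 15 skeletal muscle genes edgeR called 0, with 2 lower at an unadjusted p under 0.05 and 2 lower by DESeq2. Fitted on the 8 libraries of P18 Tg and P6 Wt alone, edgeR called 6 lower and 1 higher, where 2781 of 15799 genes were lower and 2969 higher. Acta1, skeletal muscle actin, was among the lower (log2 fold change -3.06, adjusted p = 0.0363). Their summed level was 56.1 to 265 CPM in P6 Wt and 45.9 to 99.7 CPM in P18 Tg. The summed level of 4 red blood cell genes was 673 to 1159.5 CPM in P6 Wt and 66.7 to 1406 CPM in P18 Tg, where replicate 3 held the most, and 2 of the 4 genes were lower in P18 Tg, against 15.2% of all genes. Among the P18 Wt libraries, replicate 3 lay farther from its own group than the other 3, and every count was therefore repeated without it. No batch is named in the labels.

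The counted level of the targeted gene was close to that of the younger nerve. Pmp22 measured 22830.5, 23593, 22524 and 22415 CPM in the P6 Wt libraries and 23842, 24978, 24578 and 24186 CPM in the P18 Tg libraries. The difference was not called (log2 fold change 0.10 ± 0.07, adjusted p = 0.323), with a 95% interval of -0.05 to 0.24. The 2 groups do not overlap, since the lowest P18 Tg library exceeded the highest P6 Wt library, but the interval keeps the difference within 0.5 on the log2 scale. Wild-type nerve at P18 held 45846 ± 799 CPM and P6 Tg nerve 24525 ± 1171 CPM, so that the level of Pmp22 does not check the transgenic label. The share of transgene reads that was counted to the rat gene was not tested, and the values may not hold all Pmp22 transcripts of the transgenic nerve. AC130064.1, an unnamed gene model, differed between the labels. It was picked for its large fold above the wild-type ages, so it is not an independent check of them. It was listed at 0 in all 4 P6 Wt libraries and measured 12.2, 11.4, 10.8 and 11.8 CPM in P18 Tg. Against a floor of 3 counts per library this is at least 49.8-fold higher. Of the other transgenic nerves, P6 Tg held 12.4 ± 2.07 CPM and transgenic nerve at E21 only 0.573 ± 0.177 CPM.

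Over all genes, P18 Tg nerve differed from both wild-type ages. Along the wild-type change from P6 to P18 it lay between them, and part of its difference lay off that change. Of 15951 genes tested, 5065 (31.8%) differed between P18 Tg and P6 Wt at an adjusted p under 0.05, with 2636 (16.5%) higher and 2429 (15.2%) lower in P18 Tg. By comparison, 4105 genes (25.7%) differed between P18 Tg and P18 Wt, and 6599 (41.4%) between P18 Wt and P6 Wt. For 6935 genes (43.5%) the 95% interval of the difference from P6 Wt stayed within 0.5 on the log2 scale, and for 6965 genes (43.7%) the same held for the difference from P18 Wt. A difference between P18 Tg and P6 Wt of more than 1 on the log2 scale was called for 1232 genes (7.72%). The wild-type change from P6 to P18 was used as a line on which 0 is the mean of P6 Wt and 1 the mean of P18 Wt. The 4 P18 Tg libraries stood at 0.601, 0.654, 0.588 and 0.608 on that line. Each P6 Wt library, placed on a line made without it, stood between 0.0372 and 0.0897, and each P18 Wt library between 0.83 and 0.92. The P6 Tg libraries stood between -0.0428 and -0.00734. Transgenic libraries were placed on the line from all P6 Wt and P18 Wt libraries, so the lines differ slightly between genotypes. The groups do not overlap, and the transgenic nerve at P18 was nearer to its own age than to P6. The distance off the line, as a root mean square over genes on the log2(CPM + 1) scale, was 0.397 to 0.452 in P18 Tg, 0.236 to 0.310 in P6 Wt and 0.310 to 0.344 in 3 of the P18 Wt libraries, with 0.546 in P18 Wt replicate 3. On the same scale the P18 Tg libraries lay 0.535 to 0.573 from the P6 Wt mean and 0.444 to 0.506 from the P18 Wt mean. By comparison, 3 of the P18 Wt libraries lay 0.313 to 0.358 from the mean of the rest of their group. P18 Wt replicate 3 lay 0.55 from it, farther than any P18 Tg library lay from the P18 Wt mean.

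**Figure D1:**
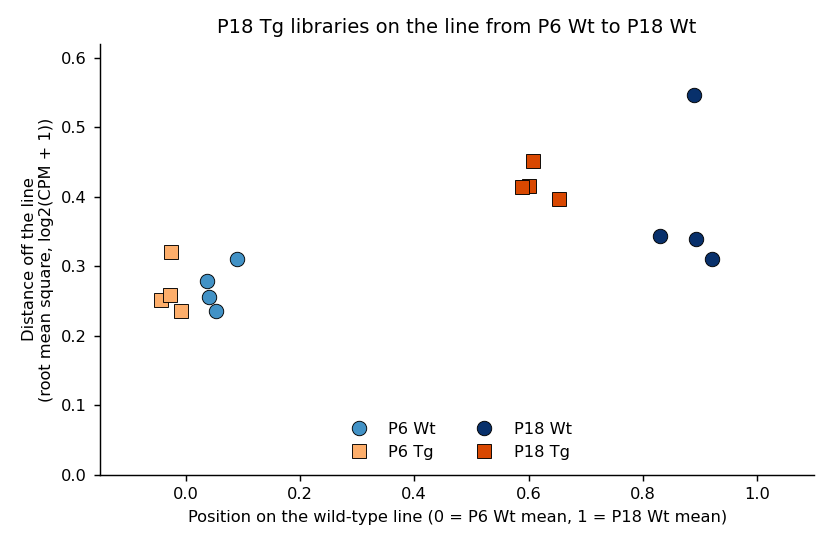
Position of each library on the line from the P6 Wt mean (0) to the P18 Wt mean (1), horizontally, against its distance off that line as a root mean square on the log2(CPM + 1) scale, vertically, with 1 point per library and 4 libraries a group. The P18 Tg libraries stand between 0.588 and 0.654 along the line and 0.397 to 0.452 off it. The P6 Tg libraries stand between -0.0428 and -0.00734, below the 0.0372 to 0.0897 of P6 Wt. Each P6 Wt or P18 Wt library was placed on a line made without it. These lines differ slightly from the line used for the transgenic libraries.

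Genes between the wild-type ages were told from genes outside them by a pair of calls. A gene was called between the wild-type ages when P18 Tg differed from P6 Wt and from P18 Wt in opposite directions, which held for 392 genes (2.46%), 202 of them (1.27%) above P6 and below P18 and 190 (1.19%) below P6 and above P18. A gene was called outside every wild-type age when P18 Tg lay above or below all of E21 Wt, P6 Wt and P18 Wt, which held for 446 genes (2.80%), 276 above (1.73%) and 170 below (1.07%). The share of outside genes that lay above was 61.9%, and 88.1% with total counts in place of TMM scaling, while the share of between genes that lay above P6 was 51.5% and 16.8% in the same order. The gene lists differed in which of these calls their members carried, as shown in the plot of fold changes by list.

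**Figure D2:**
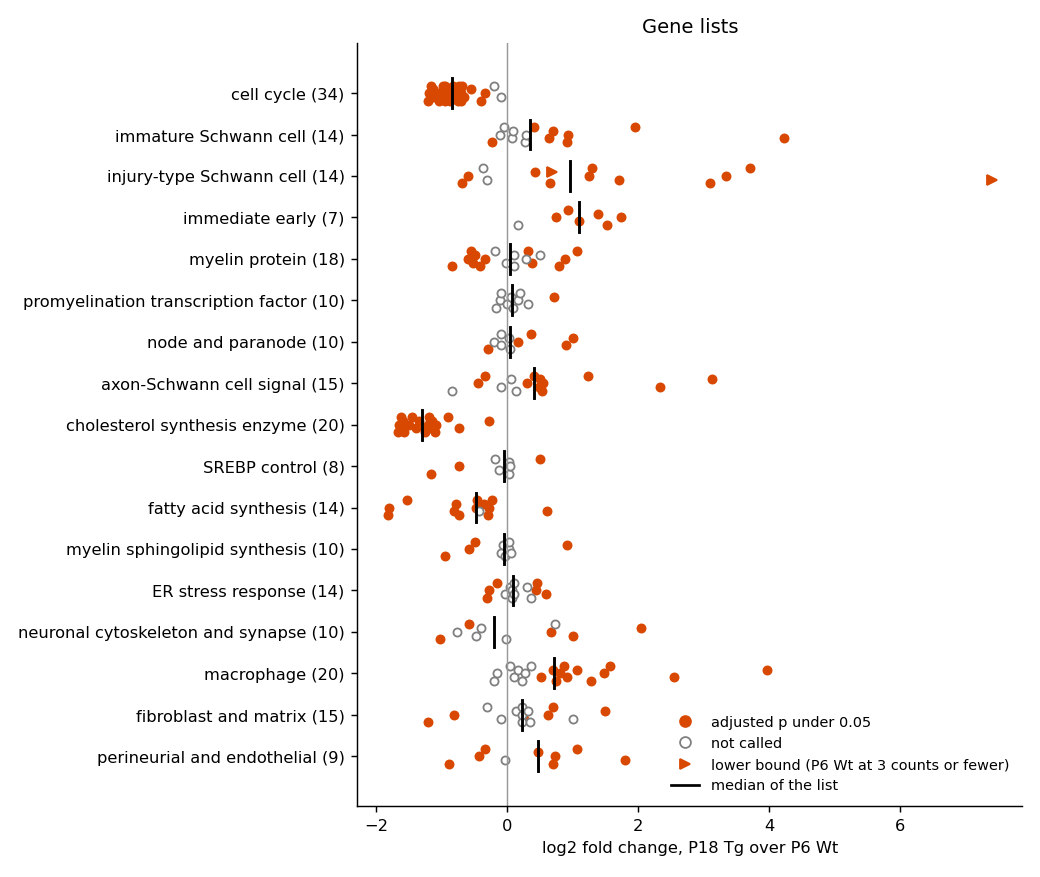
Log2 fold change of P18 Tg over P6 Wt, horizontally, for each tested gene of 17 lists, with 1 point per gene, the number of genes in parentheses and the list median, lower bounds included, as a bar. Filled points passed an adjusted p under 0.05, open points did not, and arrowheads are lower bounds for Shh and Bdnf, whose P6 Wt libraries hold 3 counts or fewer. The cell cycle and cholesterol lists lie left of 0, and the promyelination transcription factors lie around 0.

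Genes of the cell cycle took a place between the wild-type ages. Of 34 tested genes, 32 were lower in P18 Tg than in P6 Wt, against 15.2% of all genes, and 0 were higher by edgeR, at an unadjusted p under 0.05 or by DESeq2, with a median log2 fold change of -0.85 against -0.0077 over all genes. The same list had 29 members higher in P18 Tg than in P18 Wt, where 12.5% of all genes were higher, and 27 of the 34 were called between the wild-type ages, where 1.19% of all genes were below P6 and above P18. Mki67, which encodes the proliferation antigen Ki-67, measured 113, 112, 119 and 121 CPM in P6 Wt and 28.3, 27.1, 37.1 and 31.2 CPM in P18 Wt. The P18 Tg libraries held 56.96, 61.97, 59.9 and 56.7 CPM. The 3 groups do not overlap, and P18 Tg fell against P6 Wt (log2 fold change -0.98 ± 0.08, adjusted p = 2.6e-09) while staying above P18 Wt (adjusted p = 1.4e-08). Top2a, the topoisomerase that untangles chromosomes before division, measured 123, 118, 128 and 120.0 CPM in P6 Wt and 54.6, 52.04, 55.6 and 51.5 CPM in P18 Tg, with a mean of 28.4 ± 2.18 CPM in P18 Wt. Cdk1, the kinase that drives entry into mitosis, went from 36.5 ± 2.86 to 19.8 ± 1.26 CPM, with 9.33 ± 0.553 CPM in P18 Wt. The summed level of the list was 1221 to 1332 CPM in P6 Wt, 715 to 746 CPM in P18 Tg and 442 to 489 CPM in P18 Wt. All 34 members were lower in P18 Tg than in E21 Wt, where 65.2% of all genes differed and 32.9% were lower.

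The promoters of these genes are shown with the letters searched in them. RefSeq's GRCr8 assembly gives a promoter for 27 of the 35 listed genes, and 19 of the 27 (70.4%) hold the letters CCAAT on either strand in the 250 bases before the start, against 34.3% of 27457 promoters of the same length. CCAAT is the core of the box that the factor NF-Y binds, and it was searched after the list was seen to move. In the 100 bases shown for the first 3 listed genes with a match, 5′ to 3′ on the gene's strand, capitals mark CCAAT or its reverse complement.
Mki67, chr1:199952636-199952735, minus strand: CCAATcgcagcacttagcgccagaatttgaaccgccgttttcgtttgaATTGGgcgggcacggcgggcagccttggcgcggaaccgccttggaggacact
Top2a, chr10:84473099-84473198, minus strand: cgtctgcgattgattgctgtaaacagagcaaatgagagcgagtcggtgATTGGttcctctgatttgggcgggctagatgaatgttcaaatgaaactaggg
Cdk1, chr20:19265193-19265292, plus strand: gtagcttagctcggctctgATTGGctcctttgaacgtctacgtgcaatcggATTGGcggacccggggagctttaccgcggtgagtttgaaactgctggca
A match describes the letters in this window and is not evidence that a factor was bound there.

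Genes of immature Schwann cells did not return together to an earlier level. Of 14 tested genes, 7 were higher and 1 was lower in P18 Tg than in P6 Wt, with a median log2 fold change of 0.35, and 8 were lower than in E21 Wt. Over all genes these shares were 16.5%, 15.2% and 32.9%. Ngfr, the p75 neurotrophin receptor of immature and non-myelinating Schwann cells, measured 98.5, 124, 114 and 100.5 CPM in P6 Wt and 217, 182, 196 and 227 CPM in P18 Tg. All 4 P18 Tg libraries exceeded the P6 Wt libraries (log2 fold change 0.91 ± 0.10, adjusted p = 1.5e-07), whereas wild-type nerve went down from 342 ± 31.6 at E21 to 44.95 ± 5.94 CPM at P18. L1cam, an adhesion molecule of non-myelinating Schwann cells and axons, measured 89.3, 98.1, 79.9 and 79.4 CPM in P6 Wt and 127, 137, 152 and 145 CPM in P18 Tg (log2 fold change 0.69 ± 0.08, adjusted p = 5.5e-07). Ncam1, an adhesion molecule of the same cells, measured 91.8, 95.2, 88.9 and 76.9 CPM in P6 Wt and 76.9, 80.9, 87.3 and 79.96 CPM in P18 Tg, and its difference stayed within 0.5 on the log2 scale. Against P6 Wt, markers of the same cell state thus parted, with Ngfr and L1cam above it and Ncam1 level with it. Against P18 Wt, 10 of the 14 genes were higher and 0 lower by edgeR, where 12.5% and 13.2% of all genes were. Ngfr, L1cam and Ncam1 were all among the higher (adjusted p = 5.0e-13, 2.2e-07 and 6.5e-05).

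Gfap, the intermediate filament of immature and non-myelinating Schwann cells, was called above every wild-type age. It measured 2.79, 4.90, 5.54 and 5.03 CPM in P6 Wt and 40.7, 44.5, 36.1 and 39.1 CPM in P18 Wt. Its P18 Tg level was 82.2, 91.98, 94.9 and 76.2 CPM. The wild-type nerve itself raised Gfap between P6 and P18, and the P18 Tg libraries lay above all of these (adjusted p = 0.00419 for the call outside every wild-type age). Tfap2a, a transcription factor of Schwann cell precursors named here after its values were seen, also passed that call (adjusted p = 0.0433), at 1.41 ± 0.899 CPM in P18 Tg and 0.37 ± 0.123 CPM in P6 Wt. It lost the call without P18 Tg replicate 2 or 3, without any 1 of the P6 Wt libraries, without P18 Wt replicate 2 or 4 and without E21 Wt replicate 1, 2 or 4, with adjusted p-values of 0.0513 to 0.197. The replicate block (adjusted p = 0.0897), no count filter (adjusted p = 0.0757) and no E21 library (adjusted p = 0.0575) ended it as well.

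**Figure D3:**
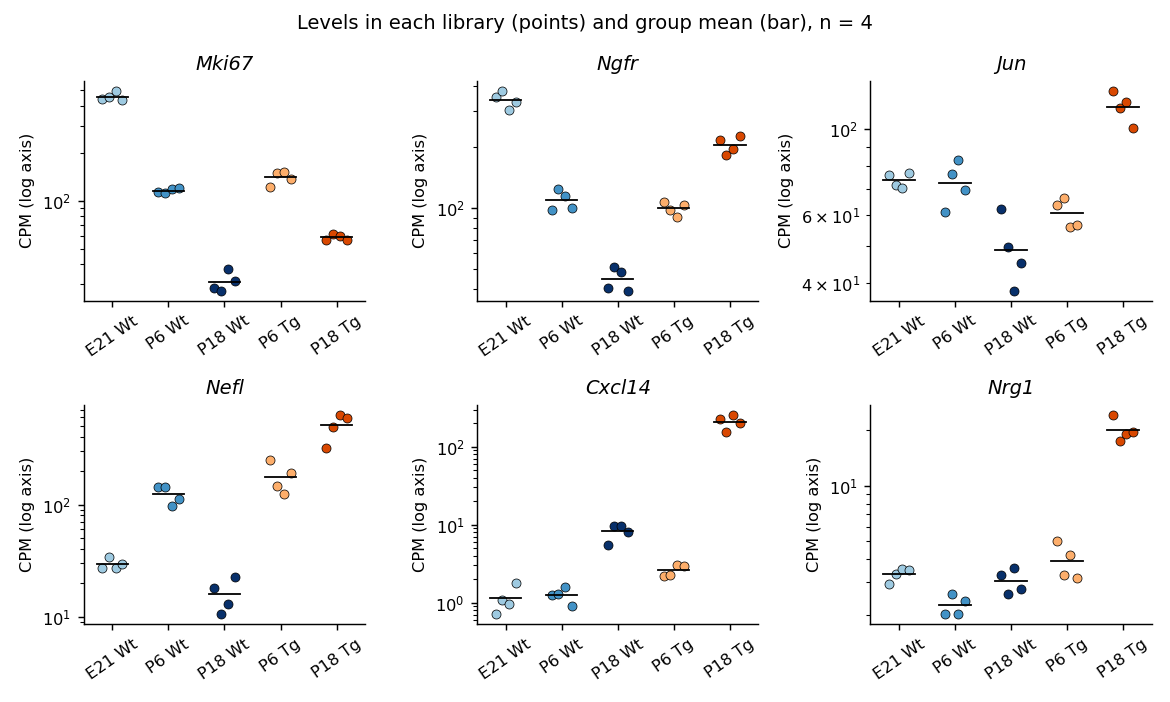
Levels in CPM on a log axis in each of 4 libraries a group (points) with the group mean (bar) for the proliferation marker Mki67, the neurotrophin receptor Ngfr, the transcription factor Jun, the neurofilament Nefl, the chemokine Cxcl14 and the growth factor Nrg1, each panel with its own axis. Mki67 in P18 Tg lies between P6 Wt and P18 Wt, Ngfr lies between E21 Wt and P6 Wt, and the other 4 lie above every wild-type library.

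Genes that mark Schwann cells after nerve injury rose, and 5 of them were at levels that no wild-type age showed. Of 14 tested genes, 10 were higher and 2 were lower in P18 Tg than in P6 Wt, against 16.5% and 15.2% of all genes. The median log2 fold change was 1.27, or 0.96 with Shh and Bdnf set to their lower bounds. The 5 genes called above every wild-type age were Jun, Shh, Runx2, Clcf1 and Btc, which is 5 of 14 where 1.73% of all genes were. Jun, the transcription factor that directs the injury response of Schwann cells, measured 60.99, 76.5, 83.01 and 69.6 CPM in P6 Wt and 125, 113, 117 and 101 CPM in P18 Tg (log2 fold change 0.65 ± 0.11, adjusted p = 5.3e-05). Its level was 48.8 ± 10.04 CPM in P18 Wt and 73.8 ± 3.18 CPM in E21 Wt, and every P18 Tg library lay above all 12 wild-type libraries.

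Shh, the secreted Sonic hedgehog ligand, was all but missing from P6 Wt, at 0, 0.0803, 0.0749 and 0 CPM, and measured 45.6, 30.6, 44.5 and 37.2 CPM in P18 Tg, at least 170.3-fold higher against a floor of 3 counts per library. P18 Wt libraries held 2.93, 2.95, 3.48 and 2.65 CPM and P6 Tg nerve 0.633 ± 0.144 CPM. Runx2, a transcription factor known best from bone, measured 2.94, 2.73, 2.62 and 3.45 CPM in P6 Wt and 23.8, 23.1, 25.5 and 28.5 CPM in P18 Tg (log2 fold change 3.09 ± 0.24, adjusted p = 8.6e-10). Btc, a ligand of the epidermal growth factor receptor family, went from 1.78, 1.61, 1.87 and 1.46 CPM to 22.1, 19.7, 23.9 and 21.3 CPM (log2 fold change 3.70 ± 0.34, adjusted p = 1.5e-08). All 4 P18 Tg libraries lay above every P6 Wt library for both genes, and P6 Tg nerve held 2.25 ± 0.476 CPM of Runx2 and 2.13 ± 0.457 CPM of Btc. Clcf1, a cytokine of the ciliary neurotrophic factor family named after its values were seen, had means of 6.70 ± 1.22 CPM in P6 Wt and 21.9 ± 1.04 CPM in P18 Tg.

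Not every gene of that list stood outside. Atf3, a stress-induced transcription factor, measured 21.001, 24.8, 24.7 and 25.2 CPM in P6 Wt and 56.6, 58.4, 61.3 and 59.3 CPM in P18 Tg (log2 fold change 1.30 ± 0.09, adjusted p = 4.0e-10), but E21 Wt nerve held more, at 75.4 ± 9.58 CPM. Uchl1, a deubiquitinating enzyme of neurons and injured Schwann cells, fell (log2 fold change -0.60 ± 0.19, adjusted p = 0.0191) and was no longer called without P18 Tg replicate 1 (adjusted p = 0.0673) or without P6 Wt replicate 3 (adjusted p = 0.0977). Immediate early genes, which cells switch on within minutes of a stimulus, rose in 6 of 7 tested members with a median log2 fold change of 1.09, where 16.5% of all genes were higher. Against P18 Wt 3 of the 7 were higher, where 12.5% of all genes were. Zfp36 and Dusp1, which damp such responses, had means of 17.5 ± 3.02 and 9.04 ± 0.903 CPM in P6 Wt and 45.9 ± 2.58 and 26.2 ± 5.36 CPM in P18 Tg. In P18 Wt they stood at 45.3 ± 7.41 and 22.997 ± 4.49 CPM and were not called against P18 Tg (adjusted p = 0.931 and 0.421). Fos measured 11.5, 15.7, 22.8 and 18.5 CPM in P6 Wt and 43.002, 33.3, 40.2 and 29.6 CPM in P18 Tg. Junb measured 2.79, 1.93, 3.29 and 2.72 CPM in P6 Wt and 12.997, 7.86, 9.31 and 5.55 CPM in P18 Tg. Both encode partners of Jun in the AP-1 factor and both were called above every wild-type age, Junb no longer so without P18 Tg replicate 1 (adjusted p = 0.051). Egr1, a zinc finger factor of the same class of genes, measured 28.98, 32.2, 32.3 and 37.3 CPM in P6 Wt and 64.5, 48.1, 70.6 and 65.4 CPM in P18 Tg (log2 fold change 0.92 ± 0.16, adjusted p = 8.7e-05), with 73.9 ± 19.9 CPM in E21 Wt.

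Signals that pass between axons and Schwann cells changed in both directions. Of 15 tested genes, 9 were higher and 2 were lower in P18 Tg than in P6 Wt, with a median log2 fold change of 0.40, and 4 were called above every wild-type age and 1 below. Over all genes 16.5% were higher, 15.2% lower, 1.73% above and 1.07% below every wild-type age. Nrg1 encodes neuregulin 1, the growth factor that axons use to set Schwann cell number and myelin thickness and that Schwann cells themselves make after injury. It measured 2.01, 2.61, 2.02 and 2.39 CPM in P6 Wt and 3.28, 2.59, 3.60 and 2.78 CPM in P18 Wt. In P18 Tg it reached 24.2, 17.5, 19.2 and 19.5 CPM (log2 fold change 3.13 ± 0.18, adjusted p = 1.1e-11). The transgenic libraries lay 6.05-fold above the nearest wild-type age. The receptors of Nrg1 were not higher than in P6 Wt. Both were higher than in P18 Wt (edgeR adjusted p = 8.6e-04 for Erbb2 and 1.9e-06 for Erbb3). Erbb2 measured 119, 119, 121 and 109.6 CPM in P6 Wt and 114, 98.03, 114 and 113 CPM in P18 Tg, within 0.5 on the log2 scale. Its P18 Wt mean was 87.3 ± 4.67 CPM. Erbb3 went down from 966 ± 8.99 to 759 ± 20.3 CPM, between P6 Wt and the 547 ± 18.3 CPM of P18 Wt.

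Lgi4, a protein that Schwann cells secrete and need for timely myelination, measured 246, 267, 275 and 273 CPM in P6 Wt and 617, 625, 645 and 597 CPM in P18 Tg (log2 fold change 1.23 ± 0.08, adjusted p = 4.9e-11), above the 433 ± 39.3 CPM of P18 Wt. Adgrg6, the adhesion receptor that starts myelination through cyclic AMP, went the other way, from 172, 159, 162 and 146 CPM to 118, 115, 119 and 116 CPM, and was called below every wild-type age (adjusted p = 0.00338). With total counts in place of TMM scaling that call was lost (adjusted p = 0.348). Cntf, the ciliary neurotrophic factor of mature Schwann cells, lay between the wild-type ages, at 26.04, 29.4, 29.04 and 24.4 CPM in P6 Wt, 127, 146, 136 and 137 CPM in P18 Tg and 381, 364, 450.4 and 442 CPM in P18 Wt, and the 3 groups do not overlap. Ptch1, the receptor of Shh and a target of its pathway, and Tgfb1, both named after their values were seen, were also called above every wild-type age, with log2 fold changes over P6 Wt of 0.54 and 0.50. For Tgfb1 the call was lost without any 1 of the P18 Tg or E21 Wt libraries, without P6 Wt replicate 1, 2 or 3 and without P18 Wt replicate 4, with adjusted p-values of 0.0544 to 0.152. It was also lost with the replicate block (adjusted p = 0.0696), RLE factors (adjusted p = 0.055), upper quartile factors (adjusted p = 0.0535), no count filter (adjusted p = 0.0587) and no E21 library (adjusted p = 0.0668).

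Myelin proteins split into genes above, level with and below the P6 wild-type nerve. Of 18 tested genes, 5 were higher and 7 were lower in P18 Tg than in P6 Wt, against 16.5% and 15.2% of all genes. The median log2 fold change was 0.03, whereas 13 were higher in P18 Wt than in P6 Wt, where 21.6% of all genes were. Mbp, myelin basic protein, went from 14676, 16658, 18608 and 17106 CPM to 11796, 11337, 10946 and 10254 CPM (log2 fold change -0.60 ± 0.11, adjusted p = 1.5e-04). Mal, a proteolipid of compact myelin, went from 3308, 3100.0, 2966 and 2638 CPM to 2029, 2113, 2039 and 2029.7 CPM (log2 fold change -0.55 ± 0.10, adjusted p = 1.6e-04). For both the groups do not overlap, and each was higher again in P18 Wt, with means of 22554 ± 2329 and 5892 ± 777 CPM. The transgenic nerve at P18 thus held less of these transcripts than a younger wild-type nerve, while E21 Wt held far less, with 628 ± 88.6 CPM of Mbp.

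Other genes of the same list lay between P6 Wt and P18 Wt. Drp2, part of the complex that anchors the outer Schwann cell membrane, measured 532, 519, 492 and 468 CPM in P6 Wt and 1729, 1724, 1959 and 1997 CPM in P18 Wt. Its P18 Tg level was 1036, 1106, 1065 and 1001 CPM. S100b, a calcium-binding protein of Schwann cells, measured 717, 724, 698 and 628 CPM in P6 Wt and 1016, 1198, 1058 and 1501 CPM in P18 Tg. Wild-type nerve at P18 held 1838, 1706, 1791 and 1699 CPM. Both were called between the wild-type ages, as was Ndrg1, whose call (adjusted p = 0.0435) was lost without any 1 of the P18 Tg, P6 Wt or P18 Wt libraries and without E21 Wt replicate 2, 3 or 4, with adjusted p-values of 0.0517 to 0.174, and with total counts in place of TMM scaling (adjusted p = 1), upper quartile factors (adjusted p = 0.0662) or no count filter (adjusted p = 0.0825). With total counts in place of TMM scaling S100b lost it too (adjusted p = 0.118). Cnp, an enzyme of non-compact myelin, had means of 1775 ± 103 CPM in P6 Wt, 1322 ± 24.7 CPM in P18 Tg and 1364 ± 128 CPM in P18 Wt, so that it was lower at P18 in either genotype.

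Most transcription factors of myelination were near their P6 Wt levels. Of 10 tested genes, 8 stayed within 0.5 on the log2 scale of P6 Wt, where 43.5% of all genes did, and 1 was higher, where 16.5% were. DESeq2 called 2 higher, and edgeR on the 8 libraries of both groups alone 3. The gene called with all libraries was Egr2, the master regulator of the myelinating state, at 193, 231, 230.0 and 220.2 CPM in P6 Wt, 327, 309, 414 and 390.4 CPM in P18 Tg and 344, 319.7, 337 and 416 CPM in P18 Wt. The P18 Tg libraries overlapped those of P18 Wt and not those of P6 Wt. Sox10, which keeps the Schwann cell lineage, measured 223, 287, 313 and 307 CPM in P6 Wt and 323, 252, 256 and 217 CPM in P18 Tg. Genes of the node and paranode, where the axon is bare or tightly sealed to myelin, stayed within 0.5 for 7 of 10, against 43.5% of all genes. Of the 10, 4 were higher and 1 was lower, against 16.5% and 15.2% of all genes. The replicate block left 2 higher. Nfasc, the adhesion molecule neurofascin, was among the genes within 0.5 on the log2 scale of P6 Wt. Its means were 355 ± 24.2 CPM in P6 Wt, 333 ± 10.3 CPM in P18 Tg and 607 ± 20.6 CPM in P18 Wt. Ezr, ezrin, which links the membrane to actin in Schwann cell microvilli, was the 1 gene of this list above every wild-type age, at 312, 252, 292 and 267 CPM against 191, 214, 236 and 236 CPM in P6 Wt.

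Every enzyme of cholesterol synthesis tested was lower in P18 Tg than in P6 Wt. All 20 of 20 were called, where 15.2% of all genes were lower, with a median log2 fold change of -1.30, and for all 20 the highest P18 Tg library lay below the lowest P6 Wt library, against 17.8% of all genes without overlap in that direction. In wild-type nerve 12 of the 20 were higher at P18 than at P6 and 1 was lower, against 21.6% and 19.8% of all genes. Hmgcs1, which makes the precursor of mevalonate, measured 2169, 1831, 2321 and 2209 CPM in P6 Wt and 2798, 2898, 3869.7 and 3263 CPM in P18 Wt. P18 Tg nerve held 741, 716, 624 and 687 CPM (log2 fold change -1.62 ± 0.10, adjusted p = 2.1e-11). The summed level of the 20 enzymes was 7416 to 8697 CPM in P6 Wt, 9598 to 11716 CPM in P18 Wt, 5909 to 7002 CPM in P6 Tg and 2936 to 3371 CPM in P18 Tg.

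Most of the same enzymes were higher than in wild-type nerve before birth. Of the 20, 15 were higher in P18 Tg than in E21 Wt, where 32.3% of all genes were, 2 were lower, and the summed level in E21 Wt was 2164 to 2491 CPM. The 2 lower enzymes were Acat2, which condenses acetyl-CoA, and Sqle, the epoxidase of squalene that is the second control point of the pathway. Acat2 measured 209.8, 214, 228 and 237 CPM in P6 Wt and 80.1, 65.8, 66.9 and 65.6 CPM in P18 Tg, with 84.6 ± 5.68 CPM in E21 Wt. Its call below every wild-type age (adjusted p = 0.0484) was lost without P18 Tg replicate 2, 3 or 4, without any 1 of the P6 Wt or P18 Wt libraries and without E21 Wt replicate 2, 3 or 4, with adjusted p-values of 0.0547 to 0.392. The replicate block (adjusted p = 0.0647), RLE factors (adjusted p = 0.0796), upper quartile factors (adjusted p = 0.161), no count filter (adjusted p = 0.194) and a stricter one (adjusted p = 0.0666) ended it too. Sqle, named after its values were seen, had means of 231 ± 15.7 CPM in P6 Wt, 147 ± 11.5 CPM in E21 Wt and 90.3 ± 5.62 CPM in P18 Tg, and was called below every wild-type age (adjusted p = 4.4e-06).

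**Figure D4:**
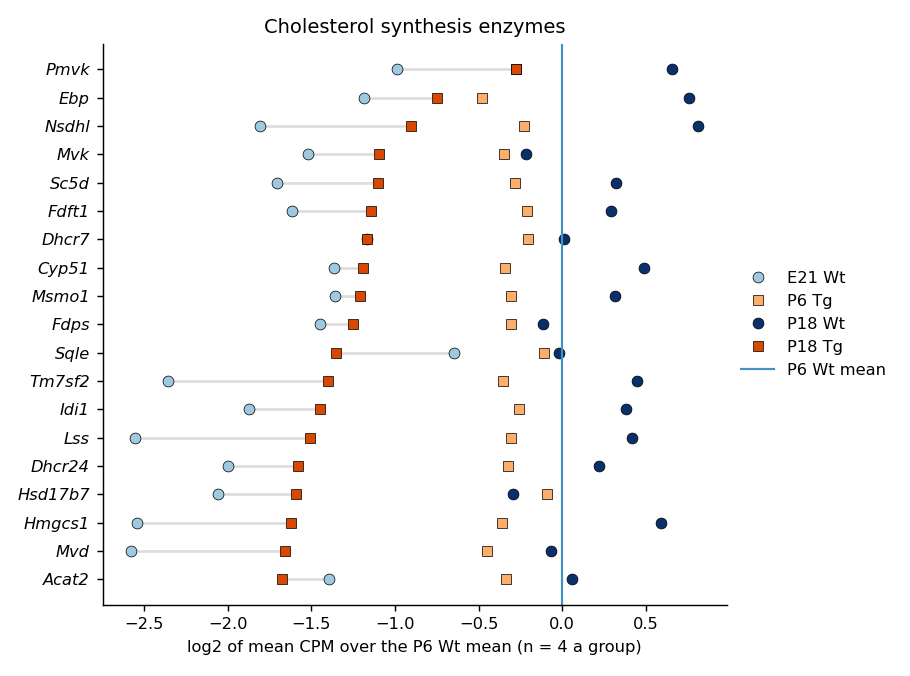
Mean level of each of 19 cholesterol synthesis enzymes as the log2 ratio to its P6 Wt mean, horizontally, in E21 Wt, P6 Tg, P18 Wt and P18 Tg, with 4 libraries a group. All P18 Tg squares lie left of the P6 Wt line, and for Acat2 and Sqle they also lie left of E21 Wt, with Dhcr7 level with it.

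The promoters of the cholesterol enzymes are shown for the same reason as those of the cell cycle. RefSeq's GRCr8 assembly gives a promoter for 15 of the 20, and 12 of the 15 (80%) hold CCAAT on either strand in the 250 bases before the start, against 34.3% of all. They were also in 11 of 14 promoters of the endoplasmic reticulum stress list (78.6%), of which 3 genes were higher and 3 lower in P18 Tg than in P6 Wt. In the immature Schwann cell list they were in 6 of 10 (60%). The letters TCACNCCAC are a form of the site bound by SREBP, the factor that drives these genes when sterols are low. They were found in 0 of the 15 and in 0.976% of 27457 promoters on either strand. At so low a share, 15 promoters cannot show whether these genes lack the site, and other forms of it were not searched. In the 100 bases shown for the first 3 listed genes with a CCAAT, capitals mark it or its reverse complement.
Hmgcs1, chr2:53382123-53382222, plus strand: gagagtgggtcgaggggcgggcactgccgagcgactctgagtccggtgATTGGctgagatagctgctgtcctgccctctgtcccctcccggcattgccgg
Idi1, chr17:66547525-66547624, minus strand: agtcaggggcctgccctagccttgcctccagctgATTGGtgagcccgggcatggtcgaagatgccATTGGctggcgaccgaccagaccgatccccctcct
Mvk, chr12:47819504-47819603, minus strand: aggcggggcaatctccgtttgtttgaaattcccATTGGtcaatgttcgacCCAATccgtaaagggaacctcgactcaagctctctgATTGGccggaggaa
The 3 windows hold 1, 2 and 3 matches.

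The genes that control the pathway did not all fall. Of 8 tested genes, 2 were lower, Insig2 was higher, and 5 stayed within 0.5 on the log2 scale, against 15.2%, 16.5% and 43.5% of all genes. Insig1, which holds SREBP in the endoplasmic reticulum when sterols are plentiful, measured 207, 180.2, 248 and 302 CPM in P6 Wt and 115, 108, 89.9 and 103 CPM in P18 Tg (log2 fold change -1.17 ± 0.13, adjusted p = 2.8e-07). Insig1 is itself a target of SREBP. Srebf2, which encodes the SREBP of cholesterol synthesis, measured 167, 187, 193 and 181 CPM in P6 Wt and 185, 159, 151 and 144 CPM in P18 Tg, and was not called (log2 fold change -0.19 ± 0.08, adjusted p = 0.0851) except by DESeq2 (adjusted p = 0.037) and without P18 Tg replicate 1 (adjusted p = 0.0143). Scap, its escort to the Golgi, measured 63.2, 72.1, 76.2 and 73.3 CPM in P6 Wt and 77.4, 73.8, 71.4 and 68.4 CPM in P18 Tg.

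Most genes of fatty acid synthesis fell as well. Of 14 tested genes of fatty acid synthesis, 12 were lower and 1 was higher in P18 Tg than in P6 Wt, with a median log2 fold change of -0.47, where 15.2% of all genes were lower. Acly, which supplies acetyl-CoA from citrate, measured 684, 650.1, 661 and 676 CPM in P6 Wt and 422, 383, 417 and 383 CPM in P18 Tg (log2 fold change -0.73 ± 0.05, adjusted p = 3.8e-10), with 693 ± 11.4 CPM in P18 Wt and 695 ± 6.78 CPM in E21 Wt. Fads2, a desaturase of polyunsaturated fatty acids, measured 109, 104, 111 and 119.7 CPM in P6 Wt and 40.8, 36.4, 37.01 and 39.1 CPM in P18 Tg (log2 fold change -1.53 ± 0.10, adjusted p = 3.3e-11). Both were called below every wild-type age, as was Fads1, a desaturase of the same pathway named after its values were seen, at 202 ± 3.82 CPM in P6 Wt and 146 ± 9.69 CPM in P18 Tg. Fasn, the fatty acid synthase, went from 642 ± 80.4 to 375 ± 40.8 CPM but stayed above the 224 ± 2.78 CPM of E21 Wt. Elovl5, an elongase, was the 1 gene that rose (log2 fold change 0.60 ± 0.07, adjusted p = 4.4e-07). Adipocytes also express these genes. The summed level of 8 adipocyte genes overlapped between the groups, at 147 to 501 CPM in P6 Wt and 144 to 589.7 CPM in P18 Tg, with 2 of the 8 higher in P18 Tg, against 16.5% of all genes.

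Of 10 tested genes of sphingolipid synthesis, 6 stayed within 0.5 on the log2 scale of P6 Wt, 3 were lower and 1 was higher, against 43.5%, 15.2% and 16.5% of all genes. The 3 lower genes make the sphingolipids that are typical of myelin. Ugt8, which adds galactose to ceramide, measured 2078, 1812, 1780.2 and 1618 CPM in P6 Wt and 929, 975, 911 and 932 CPM in P18 Tg (log2 fold change -0.96 ± 0.11, adjusted p = 3.5e-07), with 3532 ± 622 CPM in P18 Wt. Fa2h, which hydroxylates the fatty acid of these lipids, went from 443 ± 22.5 to 314 ± 5.28 CPM. Gal3st1, which adds sulfate, went from 40.5 ± 7.60 to 26.9 ± 3.51 CPM, a fall not called without P6 Wt replicate 3 (adjusted p = 0.0664). It stood at 27.3 ± 7.66 CPM in P18 Wt, from which P18 Tg was not called different (adjusted p = 0.946). Sgms2, a sphingomyelin synthase, rose from 3.82 ± 0.0842 to 7.22 ± 1.26 CPM. Of 14 genes of the endoplasmic reticulum stress response 3 were higher and 3 lower, shares near the background of all genes, with a median log2 fold change of 0.08.

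Transcripts of 2 of the 3 neurofilaments were higher than at any wild-type age, and most other neuronal genes were not higher than in P6 Wt. Nefl, the light neurofilament, measured 143, 144, 97.5 and 112 CPM in P6 Wt and 323, 496, 634 and 590.3 CPM in P18 Tg (log2 fold change 2.04 ± 0.23, adjusted p = 4.1e-07), with 17.9, 10.5, 13.1 and 22.5 CPM in P18 Wt and a mean of 29.4 ± 3.19 CPM in E21 Wt. Every P18 Tg library lay above all 12 wild-type libraries, and in wild-type nerve Nefl went down from P6 to P18. Nefm, the medium neurofilament, measured 145, 128, 72.01 and 94.6 CPM in P6 Wt and 144, 204, 282 and 249 CPM in P18 Tg (adjusted p = 5.2e-04), with 1 P18 Tg library inside the P6 Wt range. Nefh, the heavy neurofilament, was just short of a call as lower (log2 fold change -0.77 ± 0.30, adjusted p = 0.0502), at 4.18, 5.18, 4.94 and 6.29 CPM in P6 Wt and 2.97, 4.87, 2.65 and 1.58 CPM in P18 Tg. It was called lower by DESeq2 (adjusted p = 0.0251), with RLE factors (adjusted p = 0.0416), upper quartile factors (adjusted p = 0.0458) and a stricter count filter (adjusted p = 0.0493). So it was without P18 Tg replicate 2, P6 Wt replicate 1, P18 Wt replicate 3 or E21 Wt replicate 4, with adjusted p-values of 0.00839 to 0.0498. Prph, peripherin, fell (log2 fold change -1.03 ± 0.26, adjusted p = 0.00419). Tubb3, neuronal tubulin, fell as well (log2 fold change -0.59 ± 0.20, adjusted p = 0.0251). That call was lost without P18 Tg replicate 1 (adjusted p = 0.0509), P18 Tg replicate 2 (adjusted p = 0.082), P6 Wt replicate 2 (adjusted p = 0.0624) or P6 Wt replicate 3 (adjusted p = 0.0841). Over the 10 genes of this list 3 were higher, the third being the neuronal enolase Eno2, and 2 were lower, shares near those of all genes (16.5% and 15.2%), with a median log2 fold change of -0.21. The median was -0.02 on the 8 libraries of both groups alone and -0.01 with the stricter count filter. Eno2 measured 69.9 ± 6.89 CPM in P6 Wt, 111 ± 7.74 CPM in P18 Tg and 121 ± 5.82 CPM in P18 Wt, and was not called between the last 2 (adjusted p = 0.303). Nefl and Nefm are best known from neurons, and which cells held these transcripts was not tested.

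Macrophage genes rose in part. Of 20 tested genes, 12 were higher in P18 Tg than in P6 Wt and 0 were lower by edgeR, at an unadjusted p under 0.05 or by DESeq2, where 16.5% and 15.2% of all genes were. Their median log2 fold change was 0.72. Their summed level was 455 to 565 CPM in P6 Wt, 833 to 1101 CPM in P18 Wt and 1087 to 1240.1 CPM in P18 Tg. Against P18 Wt 12 of the 20 were higher and 1 was lower by edgeR, where 12.5% and 13.2% of all genes were. Among the genes that did not pass the test were Aif1, Itgam, Cx3cr1 and Cd68, which define the cell type, with Cd68 at 8.21, 10.5, 9.28 and 12.1 CPM in P6 Wt and 11.2, 11.98, 10.7 and 13.3 CPM in P18 Tg. Csf1r, the receptor that macrophages need to survive, did not pass it either, at 71.1, 73.9, 66.02 and 81.5 CPM in P6 Wt and 84.6, 91.2, 71.7 and 80.5 CPM in P18 Tg. Cd74, the invariant chain of class II antigen presentation, had the largest difference of the list, at 11.8 ± 2.72 CPM in P6 Wt, 111 ± 17.96 CPM in P18 Wt and 184 ± 66.1 CPM in P18 Tg. Lgals3, galectin 3, measured 54.6, 64.9, 67.8 and 63.04 CPM in P6 Wt and 213, 164, 190.3 and 177 CPM in P18 Tg (log2 fold change 1.57 ± 0.11, adjusted p = 2.4e-10). Lyz2, a lysozyme, measured 82.9, 91.9, 98.1 and 129 CPM in P6 Wt and 227, 315, 278 and 308 CPM in P18 Tg (log2 fold change 1.48 ± 0.17, adjusted p = 5.2e-07). Both were called above every wild-type age, where 1.73% of all genes were, as were Ctss and Gpnmb, which were named after their values were seen and had log2 fold changes of 1.28 and 1.06. Spp1, osteopontin, which Schwann cells also make, was called between the wild-type ages. It measured 16.4 ± 1.39 CPM in P6 Wt, 95.8 ± 13.9 CPM in P18 Tg and 295 ± 80.4 CPM in P18 Wt. Spp1 was the 1 gene of the list lower in P18 Tg than in P18 Wt, and it holds a larger part of the P18 Wt sum. The part of macrophage number in the genes described above was not tested.

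Dcn, Slc2a1 and Cldn1, of fibroblasts and perineurium, differed from P6 Wt and not detectably from P18 Wt, and the endothelial genes Kdr and Emcn lay below every wild-type age. Of 15 tested fibroblast and matrix genes, 4 were higher and 2 were lower in P18 Tg than in P6 Wt, against 16.5% and 15.2% of all genes. Within 0.5 on the log2 scale of P18 Wt lay 7 of the 15, against 43.7% of all genes, so the list as a whole was near the background. The 2 lower genes were Col14a1 and Postn (log2 fold changes -0.82 ± 0.08 and -1.21 ± 0.15). Against P18 Wt 3 of the 15 were lower and 0 higher by edgeR, where 13.2% and 12.5% of all genes were. Postn (adjusted p = 0.017) and Sparc (adjusted p = 0.0469) were among these lower genes. Dcn, the collagen-binding proteoglycan decorin, measured 907, 898, 886 and 814 CPM in P6 Wt and 2328, 2636, 2688 and 3023 CPM in P18 Wt. In P18 Tg it reached 1975, 2574, 2480.1 and 2846 CPM. Of 9 tested perineurial and endothelial genes, 5 were higher and 3 were lower in P18 Tg than in P6 Wt, against the same shares of all genes as above, with a median log2 fold change of 0.46. Slc2a1, the glucose transporter of the blood-nerve barrier and the perineurium, had means of 43.7 ± 4.37 CPM in P6 Wt, 151 ± 5.48 CPM in P18 Tg and 179 ± 23.7 CPM in P18 Wt. Cldn1, a tight-junction protein of perineurial cells, had means of 115 ± 4.41, 241 ± 37.3 and 259 ± 25.4 CPM in the same order. For each of Dcn, Slc2a1 and Cldn1, P18 Tg differed from P6 Wt and was not called against P18 Wt, with adjusted p-values of 0.554, 0.103 and 0.58. The endothelial genes did not move one way. Tek, the angiopoietin receptor of endothelium, rose from 39.5 ± 4.06 to 64.1 ± 6.58 CPM (log2 fold change 0.70 ± 0.14, adjusted p = 3.5e-04), with 75.5 ± 4.94 CPM in P18 Wt. Kdr, the receptor for vascular endothelial growth factor, measured 86.6, 71.8, 74.2 and 87.8 CPM in P6 Wt and 82.4, 78.7, 89.5 and 68.8 CPM in P18 Wt. Transgenic nerve at P18 held 52.1, 47.7, 37.7 and 36.2 CPM, and was called below every wild-type age (adjusted p = 5.0e-05). Emcn, a glycoprotein of venous and capillary endothelium, was called below as well (adjusted p = 0.0252). It lost the call with total counts in place of TMM scaling (adjusted p = 0.258) and without P18 Tg replicate 3 (adjusted p = 0.137), P18 Tg replicate 4 (adjusted p = 0.103), P6 Wt replicate 1 (adjusted p = 0.101) or P6 Wt replicate 4 (adjusted p = 0.0829). Cdh5, the cadherin of endothelial junctions, fell against P6 Wt (log2 fold change -0.35 ± 0.10, adjusted p = 0.0118) and did not pass the call below every wild-type age (adjusted p = 0.0819).

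Several of the largest differences from P6 Wt were also present in wild-type nerve at P18. Myoc, the secreted protein myocilin, measured 0.0775, 0.281, 0.0749 and 0.284 CPM in P6 Wt and 359, 476, 289 and 359 CPM in P18 Wt. P18 Tg nerve held 279, 342, 549.9 and 471 CPM, and P18 Tg was not called against P18 Wt (adjusted p = 0.61). Dlk1, a membrane protein of embryonic and early postnatal tissue, measured 114, 139.7, 129.9 and 129 CPM in P6 Wt and 6.92, 5.66, 3.72 and 3.28 CPM in P18 Wt. Transgenic nerve at P18 held 5.13, 5.18, 3.89 and 2.74 CPM. Epyc, a small proteoglycan of cartilage, measured 67.3, 54.7, 77.6 and 101 CPM in P6 Wt and 1.68, 1.31, 1.30 and 1.44 CPM in P18 Tg, with 1.70 ± 0.709 CPM in P18 Wt. For all 3 genes the P18 Tg libraries overlapped the P18 Wt libraries, and the log2 fold changes over P18 Wt were 0.15 ± 0.18, -0.22 ± 0.24 and -0.33 ± 0.28. LOC100360791, LOC100362027 and Rps27a were also among the 5 largest decreases by fit, at 0 CPM in all 4 P18 Tg libraries. These are models of genes with near-identical copies among which the counting can divide reads, so their values are uncertain. Rps27a was also listed at 0 in 2 of the 4 P6 Wt libraries.

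The genes farthest above every wild-type age were of several kinds. The rule took the 10 largest folds from the nearest wild-type age among genes whose P18 Tg libraries overlapped no wild-type library, a property of 477 genes (2.99%) above and 326 (2.04%) below. Cxcl14, a chemokine, led the named genes after AC130064.1, at 1.24, 1.28, 1.57 and 0.893 CPM in P6 Wt, 5.50, 9.70, 9.72 and 7.95 CPM in P18 Wt and 225, 156, 258 and 199 CPM in P18 Tg (log2 fold change 7.42 ± 0.25, adjusted p = 2.9e-15). The transgenic libraries were 25.5-fold above the nearest wild-type age, and P6 Tg nerve held 2.62 ± 0.445 CPM. The wild-type change with age went in the direction of the transgenic level without reaching it.

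Col7a1 and Ptprn, of the same set, were not higher in wild-type nerve at P18 than at P6. Col7a1, the collagen of anchoring fibrils, measured 2.87, 4.09, 4.49 and 4.95 CPM in P6 Wt and 3.20, 3.07, 1.32 and 2.46 CPM in P18 Wt. Its P18 Tg level was 41.6, 35.7, 44.7 and 37.5 CPM (log2 fold change 3.27 ± 0.26, adjusted p = 1.3e-09). Ptprn, a phosphatase-like protein of secretory granules, measured 6.04, 6.74, 6.89 and 6.86 CPM in P6 Wt and 4.44, 3.86, 0.48 and 1.77 CPM in P18 Wt. In P18 Tg it reached 30.2, 41.7, 38.4 and 29.1 CPM. In both the P18 Wt mean lay below the P6 Wt mean. Itga10, a collagen-binding integrin subunit, rose from 1.06 ± 0.15 to 23.5 ± 2.78 CPM, and was also higher in P18 Wt, at 2.46 ± 0.667 CPM, than in P6 Wt (adjusted p = 0.00189). Tmprss13, a membrane serine protease, rose from 2.12 ± 0.589 to 12.1 ± 2.74 CPM, with 1.86 ± 0.808 CPM in P18 Wt. RefSeq gives promoters for 5 of the 10 genes, and the AP-1 letters TGANTCA on either strand were found in 1 of them, that of Cxcl14, and in 6.36% of 27457 promoters. They were in 0 of 7 promoters of the injury list, 0 of 7 of the immediate early list and 2 of 16 of the macrophage list. So few promoters cannot show whether a list lacks or is rich in these letters.

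**Figure D5:**
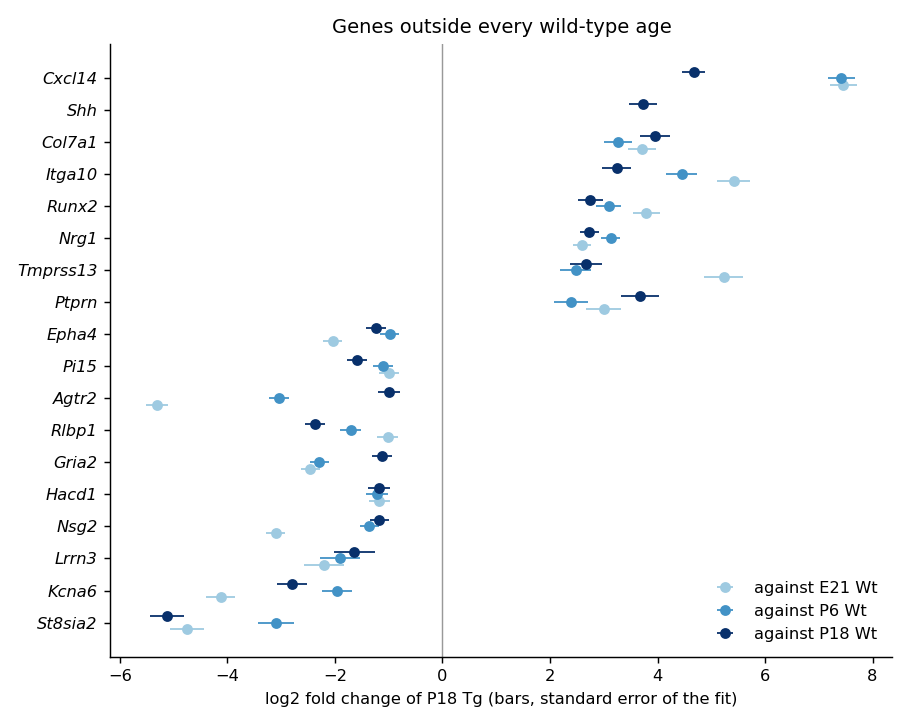
Log2 fold change of P18 Tg against E21 Wt, P6 Wt and P18 Wt, horizontally, with the standard error of the fit as bars and 4 libraries a group, for 18 of the genes named by the rule outside every wild-type age that hold more than 3 counts in at least 1 wild-type library. Points against a group with 3 counts or fewer in every library are left out, which leaves Shh with 1 point. The 8 upper genes lie right of 0 against every age shown and the 10 lower genes lie left of 0.

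Below every wild-type age the named genes were mostly at low levels. St8sia2, a sialyltransferase that adds polysialic acid to Ncam1, measured 3.72, 3.13, 1.72 and 2.52 CPM in P6 Wt and 12.3, 11.7, 9.48 and 11.7 CPM in P18 Wt. P18 Tg nerve held 0.481, 0.374, 0.177 and 0.274 CPM (log2 fold change -3.09 ± 0.33, adjusted p = 1.6e-07). Agtr2, the type 2 receptor of angiotensin, measured 65.9, 57.1, 66.5 and 54.1 CPM in P6 Wt and 15.1, 11.6, 17.9 and 15.02 CPM in P18 Wt. Transgenic nerve at P18 held 6.66, 9.24, 5.01 and 8.64 CPM, in the direction of the wild-type change with age and beyond it. Gria2, a subunit of glutamate receptors, did the same, at 26.5, 18.6, 16.5 and 18.6 CPM in P6 Wt and 7.55, 8.07, 12.5 and 7.95 CPM in P18 Wt. Its P18 Tg libraries held 4.97, 4.31, 3.65 and 3.50 CPM. For St8sia2 the wild-type nerve had risen from P6 to P18, opposite to the transgenic level.

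Rlbp1, which encodes a retinaldehyde-binding protein, measured 14.2, 11.96, 11.8 and 12.8 CPM in P6 Wt and 3.61, 3.49, 3.71 and 4.73 CPM in P18 Tg, with a mean of 20.2 ± 5.77 CPM in P18 Wt. Kcna6, a voltage-gated potassium channel, went from 1.77 ± 0.34 to 0.448 ± 0.137 CPM. Epha4, an ephrin receptor, went from 6.25 ± 1.40 to 3.14 ± 0.314 CPM. Pi15, a secreted protease inhibitor, went from 18.1 ± 2.04 to 8.46 ± 1.55 CPM. Hacd1, an enzyme of very long chain fatty acids, stood at 14.02 ± 1.17 CPM in P6 Wt and 6.01 ± 0.378 CPM in P18 Tg. Nsg2, a neuronal endosomal protein, stood at 3.86 ± 0.604 and 1.51 ± 0.295 CPM. Lrrn3, a leucine-rich membrane protein, stood at 10.3 ± 5.64 and 2.80 ± 1.21 CPM. Lrrn3 lost its call below every wild-type age without P18 Tg replicate 2 (adjusted p = 0.0754), P18 Tg replicate 3 (adjusted p = 0.0593) or P18 Wt replicate 3 (adjusted p = 0.0501).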

How the data were processed

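Sciatic nerve RNA of 4 wild-type and 4 transgenic rats at each of E21, P6 and P18 was sequenced as single-end reads of 50 bases. Per the labels and the study's methods, the authors called bases with CASAVA 1.8.2, aligned reads with Bowtie2 2.0.2 in RSEM 1.2.29 to the rn6 transcriptome and deposited the resulting expected counts for 32402 genes. These expected counts are not normalized and were rounded to whole numbers here. The CPM values of the text were computed here from those counts. Paralogs with near-identical sequence share reads by estimate under this counting.

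The test took the 15951 genes whose normalized counts averaged 5 or more across 24 libraries. A model with 6 groups was fitted with edgeR 4.0.16 in R 4.3.3 (TMM scaling, quasi-likelihood F test, Benjamini-Hochberg adjustment over all genes tested, threshold 0.05), so that all groups share 1 estimate of the spread. The call outside every wild-type age takes the largest of the 3 p-values against E21 Wt, P6 Wt and P18 Wt, all in 1 direction, and the call between the wild-type ages the larger p against P6 Wt and P18 Wt, in opposite directions, each adjusted over all genes. The scripts were tested on simulated data. Genes were named by rule: Pmp22, Mki67, Ngfr, Jun and Nefl, the first 3 genes of each list with up to 4 of the smallest adjusted p in each direction, the 10 largest folds outside the wild-type ages and the 5 largest in each direction against P6 Wt, the last 2 among genes whose normalized counts averaged 50 or more. Some genes that the rule takes are not reported here, though they count in the lists. Genes of the lists that fell outside the rule are named as such. The members, gene lists, motifs and tests were chosen with earlier results of these data known. The rats are given as biological replicates and the p-values measure the spread between them.

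Alternatives were DESeq2 1.42.0, other size factors, total counts, other filters, fewer groups, a replicate block and each library left out. Promoters came from RefSeq's GRCr8 table, matched by symbol, and figures were drawn with matplotlib 3.10.9.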

Additional observations from a re-analysis of the deposited data

Results flagged for a closer look

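In 206 sets of 1 gene and 1 group of 4 libraries, 12 had a single library whose gap to its nearest neighbour exceeded Dixon's 95% critical value, and chance gives about 1 in 20 such sets. In P6 Wt these were Atf3 in replicate 1 (21.001 CPM, others 24.7 to 25.2), Ptch1 in replicate 3 (212 CPM, others 241 to 246), Gpnmb in replicate 4 (23.4 CPM, others 29.7 to 30.8) and Ptprn in replicate 1 (6.04 CPM, others 6.74 to 6.89). In P18 Tg they were Mal in replicate 2 (2113 CPM, others 2029 to 2039), Erbb2 in replicate 2 (98.0 CPM, others 113 to 114), Acat2 in replicate 1 (80.1 CPM, others 65.6 to 66.9), Aif1 in replicate 4 (29.01 CPM, others 18.91 to 19.03) and Tmprss13 in replicate 4 (16.1 CPM, others 10.11 to 11.02).

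The remaining 3 sets were in P18 Tg and hold genes of other tissues or of the Y chromosome. Hbb, a beta globin, measured 1371 CPM in replicate 3 and 64.5 to 248 CPM in the others, and without that library it was lower in P18 Tg than in P6 Wt (edgeR adjusted p = 0.00111). Acta1, skeletal muscle actin, measured 10.9 CPM in replicate 1 and 0.562 to 0.892 CPM in the others. Kdm5d, a Y-linked demethylase, measured 0.118 CPM in replicate 3 and 48.1 to 54.9 CPM in the others.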

How the results depend on the processing

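Of the members called and medians of the gene lists, 63 values moved and 945 did not with 1 library left out, and 6 moved and 57 did not on the 8 libraries of P18 Tg and P6 Wt alone. Of 157 results on single genes, 141 kept their call under every alternative that could give them, 16 changed and 0 turned direction over 26 alternatives. The position of P18 Tg between the wild-type ages was 0.613 (SD 0.0286), 0.548 with total counts alone, and 0.572 to 0.636 with 1 library left out, the lowest without P18 Wt replicate 1 and 0.584 without P18 Wt replicate 2. With total counts alone 504 genes lay above and 68 below every wild-type age, 95 lay above P6 and below P18, 469 lay below P6 and above P18, and 6988 differed between P18 Tg and P18 Wt. In that comparison the median of all genes between P18 Wt and P6 Wt moved by -0.237 on the log2 scale. Without any E21 library, a setting that asks 1 condition fewer and also refits the spread over 15810 genes, 752 genes lay outside the remaining wild-type ages, 436 above and 316 below, and the cause was not tested. With only the 12 libraries of P18 Tg, P6 Wt and P18 Wt, 122 genes lay below P6 and above P18, and the cause was not tested.

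With 1 library left out, 4364 to 5814 genes differed between P18 Tg and P6 Wt, 343 to 464 lay outside, 309 to 466 lay between and 6422 to 7364 stayed within 0.5 of P6 Wt. The sets without 1 library of P18 Wt or E21 Wt were chosen after seeing the data. DESeq2 gave 5550, 569, 534 and 7001 genes for the same 4 counts. Correlations of same-numbered libraries of P18 Tg and P6 Wt were -0.159, -0.0617, -0.0759 and -0.0631, so the numbers do not pair them, and with the replicate block 4963 genes differed, 424 lay outside and 367 between. Results that need P18 Wt or E21 Wt have no value from the 8 libraries of P18 Tg and P6 Wt alone. Genes under 1 CPM rest on few counts, and intervals cover the spread between 4 animals only.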

Other observations

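RT1-Ba, RT1-Bb, RT1-Da and RT1-Db1, which encode chains of the rat class II molecules of antigen presentation, are in none of the lists and were chosen after their values were seen. They had log2 fold changes over P6 Wt of 3.69 ± 0.24, 3.85 ± 0.33, 3.93 ± 0.31 and 3.67 ± 0.33. Wild-type nerve at P18 held part of the same rise, with log2 fold changes of P18 Tg over P18 Wt of 0.73 ± 0.21, 0.75 ± 0.28, 0.94 ± 0.27 and 0.81 ± 0.28 and edgeR adjusted p-values of 0.0109, 0.0528, 0.0117 and 0.0389. Their means in P6 Wt were 2.70 ± 0.50, 2.51 ± 0.05, 3.88 ± 0.75 and 2.58 ± 0.64 CPM and in P18 Tg 35.3 ± 12.4, 36.2 ± 17.9, 58.6 ± 18.7 and 33.04 ± 10.2 CPM. The summed level of the macrophage list was 455 to 565 CPM in P6 Wt and 1087 to 1240.1 CPM in P18 Tg, and its part in these values was not tested.

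Another 5 genes were also named after their values were seen. Apod, a lipid-binding lipocalin made by fibroblasts and Schwann cells, measured 591 to 629 CPM in the P6 Wt libraries, 1380.0 to 1990.3 CPM in P18 Wt and 4694 to 6721 CPM in P18 Tg (log2 fold change over P6 Wt 3.28 ± 0.13, edgeR adjusted p for the call outside every wild-type age = 4.9e-09). P18 Wt was also above P6 Wt (log2 fold change 1.54 ± 0.12, edgeR adjusted p = 9.8e-10). Thbs2, a matrix thrombospondin, measured 261 to 289 CPM in the P6 Wt libraries, 267 to 364 CPM in P18 Wt and 954 to 1105 CPM in P18 Tg (log2 fold change over P6 Wt 1.96 ± 0.14, edgeR adjusted p for the call outside every wild-type age = 1.7e-08). Fgl2, a secreted fibrinogen-like protein, went from 51.9 ± 9.18 CPM in P6 Wt to 790.1 ± 79.7 CPM in P18 Tg, with 928 ± 107 CPM in P18 Wt (edgeR adjusted p against P18 Wt = 0.255). Cpxm2, a secreted carboxypeptidase-like protein, went from 3.15 ± 0.88 CPM in P6 Wt to 87.9 ± 13.9 CPM in P18 Tg, with 81.6 ± 8.999 CPM in P18 Wt (edgeR adjusted p against P18 Wt = 0.709). Slc6a13, a transporter of gamma-aminobutyric acid, went from 0.64 ± 0.30 CPM in P6 Wt to 22.7 ± 4.40 CPM in P18 Tg, with 21.2 ± 5.04 CPM in P18 Wt (edgeR adjusted p against P18 Wt = 0.931).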
